A study of Mus musculus with 9 samples.

Results

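The genes that copy DNA in S phase were followed through RNA sequencing of B16, a mouse melanoma cell line, in CTL, MS and Blebb cells. The set was chosen by gene symbol and held 51 of the 22972 gene names in the deposited tables, covering the replicative helicase, origin licensing, the polymerases, the sliding clamp and its loader, nucleotide supply, chromatin upkeep and the cyclin E step that opens S phase. All 51 symbols were found, and 51 of 51 reached an average of 1 FPKM across the libraries, the minimum that left 10109 genes for testing. FPKM is a read count scaled by transcript length and by library size, so it can be compared between genes.

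The study asked how repeated stretching of the growth surface acts on melanoma cells and what part the cytoskeleton plays in it, and 9 libraries were deposited, 3 in each group. All cells were wild-type B16 cultured on flexible PDMS film in serum-containing medium and harvested on day 3. CTL cells received neither treatment, MS cells received cyclic straining through the film for 72 h, and Blebb cells received 100 ng/mL blebbistatin, an inhibitor of the myosin II motor, for 72 h. The labels name only blebbistatin for the Blebb group, whereas the study's figure legends name straining together with blebbistatin, so Blebb was compared with both other groups. No vehicle is named for CTL in the sources used here. The replicate numbers stand for parallel experiments of 1 cell line, and nothing states that these were separate cultures, so each p-value measures the spread between these libraries, which may be technical.

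DNA replication starts when the origin recognition complex, Cdc6 and Cdt1 load the MCM helicase onto DNA in G1 phase. At the G1/S boundary, cyclin E with its kinase and the E2F transcription factors switch on the program, Cdc45 and GINS activate the helicase, and the polymerases copy both strands with Pcna as the sliding clamp. Many of these genes are transcribed in a wave at the G1/S boundary, so their summed RNA is often read as a mark of proliferating cells. In bulk RNA, fewer cells in S phase and less of each RNA per cell cannot be told apart.

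The labelled cell type was checked first. The 7 melanocyte markers Tyr, Tyrp1, Dct, Pmel, Mlana, Sox10 and Mitf were all above the minimum, with a summed level between 7444 and 12933 FPKM. None of 6 fibroblast markers (0 of 6) and none of 6 keratinocyte markers (0 of 6) passed the minimum, with sums of at most 0.567 and 0.0363 FPKM, and Dcn, Lum, Krt1, Krt10 and Trp63 were listed at 0 in every library. Of 6 macrophage markers 1 passed, Cd68, and the defining leukocyte gene Ptprc was listed at 0.

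The libraries did not separate by treatment. On the first principal component of the 10109 genes, which held 70.4% of the variance, CTL 1 scored -42.1, Blebb 2 scored -43.9 and MS 3 scored -10.0, while Blebb 1 scored -7.29 and the other 5 libraries scored 6.07 to 35.8. The replication genes were low in CTL 1, MS 3 and Blebb 2, which are libraries of 3 different groups, so results below are given with these 3 libraries and without them. The columns summed to between 439939 and 484093 FPKM, and the number of sequenced fragments is unknown.

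Promoter sequences of a few members are shown as examples, and whether they bear on the levels of these genes was not tested. E2F proteins are known to bind short GC-rich words next to a run of T, and the words TTTCCCGC, TTTCGCGC, TTTGCCGC and TTTGGCGC were searched on both strands, with overlapping matches counted, in windows from 250 bases before to 50 bases after the start of each gene in RefSeq (GRCm38.p6). For 44 of 51 members a window was found, 52 windows in all. A word was present in at least 1 window of 18 members (40.9%), against 704 of all 27025 gene symbols (2.6%). By window, it was 18 of the 52 windows (34.6%), against 744 of all 32851 windows of the same length (2.26%). The 6 members with 2 or more matches were Dnmt1, Mcm3, Mcm5, Mcm6, Mcm7 and Rfc3, and the share of all genes with 2 or more was not counted. Not found by symbol were Pole, Prim2, Gins2, Gins1, Rfc2, Ccne2 and Mcm4.

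The windows of 4 helicase subunits with matches and of Brca1, which had no match, are printed 5′ to 3′ on the strand of the gene, in lower case with every match in capitals.
Mcm3 (chr1:20820263-20820562, - strand): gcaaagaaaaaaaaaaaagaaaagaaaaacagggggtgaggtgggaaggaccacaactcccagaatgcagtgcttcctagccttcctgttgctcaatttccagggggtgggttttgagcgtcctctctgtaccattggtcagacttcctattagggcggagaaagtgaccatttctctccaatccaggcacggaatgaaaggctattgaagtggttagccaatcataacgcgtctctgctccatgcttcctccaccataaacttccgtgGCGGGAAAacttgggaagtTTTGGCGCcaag
Mcm5 (chr8:75109259-75109558, + strand): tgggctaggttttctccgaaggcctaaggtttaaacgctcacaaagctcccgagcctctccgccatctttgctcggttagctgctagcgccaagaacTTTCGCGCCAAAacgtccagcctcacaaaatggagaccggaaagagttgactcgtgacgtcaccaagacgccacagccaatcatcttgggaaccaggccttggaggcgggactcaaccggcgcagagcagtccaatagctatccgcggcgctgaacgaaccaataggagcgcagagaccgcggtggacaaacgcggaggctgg
Mcm6 (chr1:128359656-128359955, - strand): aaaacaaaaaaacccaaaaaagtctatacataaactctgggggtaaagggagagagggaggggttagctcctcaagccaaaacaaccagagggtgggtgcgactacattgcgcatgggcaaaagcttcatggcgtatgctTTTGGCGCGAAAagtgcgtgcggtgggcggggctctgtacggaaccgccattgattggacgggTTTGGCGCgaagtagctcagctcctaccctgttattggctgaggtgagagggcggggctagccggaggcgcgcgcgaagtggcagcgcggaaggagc
Mcm7 (chr5:138171834-138172133, - strand): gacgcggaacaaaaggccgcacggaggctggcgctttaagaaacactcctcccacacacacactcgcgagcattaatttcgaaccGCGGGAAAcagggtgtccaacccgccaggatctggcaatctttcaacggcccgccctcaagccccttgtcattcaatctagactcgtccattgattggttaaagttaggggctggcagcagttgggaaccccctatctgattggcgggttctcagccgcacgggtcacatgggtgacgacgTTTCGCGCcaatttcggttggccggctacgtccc
Brca1 (chr11:101551906-101552205, - strand): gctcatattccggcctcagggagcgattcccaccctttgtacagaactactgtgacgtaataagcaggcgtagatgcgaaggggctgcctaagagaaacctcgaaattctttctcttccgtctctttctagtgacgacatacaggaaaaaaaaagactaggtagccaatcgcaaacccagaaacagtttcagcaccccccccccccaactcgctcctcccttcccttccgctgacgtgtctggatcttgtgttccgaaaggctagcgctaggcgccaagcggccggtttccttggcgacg
Counted from the start of the gene, the matches began at 20 and 39 in Mcm3, at -153 and -149 in Mcm5, at -110, -106 and -47 in Mcm6 and at -165 and 17 in Mcm7. In Mcm5 and in Mcm6 the first match and the next one overlap by 4 bases and run on opposite strands. A second RefSeq window of Mcm7 (chr5:138171217-138171516) held none of the words. A match describes letters and is not a binding site, and a window without a match, such as those of Pcna, Mcm2, Tk1, Rrm2 and Brca1, says only that these letters are not in it.

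The replication genes were abundant as a set, with a median level of 24.3 FPKM against 10.4 FPKM over all genes tested, at the median percentile 71.7 of level. They were also far more variable between replicates than most genes. The SD within groups on the log2(FPKM + 1) scale had a median of 0.595 over the members, from 0.216 for Rpa1 to 1.24 for Ccne2, against 0.245 over all genes tested. The highest library exceeded the lowest by a median of 2.73 times in members and 1.73 times over all genes. This ratio was highest for Pola1 (29.95), Ccne2 (24.4), Hells (20.7) and Clspn (14.9), all of which were under 1 FPKM in some libraries, and was 1.48 for Rfc2.

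CTL 1 was the lowest CTL library for 50 of 51 members (98.0%), MS 3 the lowest MS library for 47 (92.2%) and Blebb 2 the lowest Blebb library for 50 (98.0%). Over all genes tested the same libraries were lowest in 54.1%, 34.1% and 44.3% of genes. All 3 held at once for 47 of 51 members (92.2%) against 2324 of 10109 genes (23.0%), and the 4 members left were Pole, Rpa1, Clspn and Brca1. CTL 1, MS 3 and Blebb 2 were singled out because the members were low in them, so high shares among the members follow from that choice. The shares describe the libraries and were not tested.

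**Figure D1:**
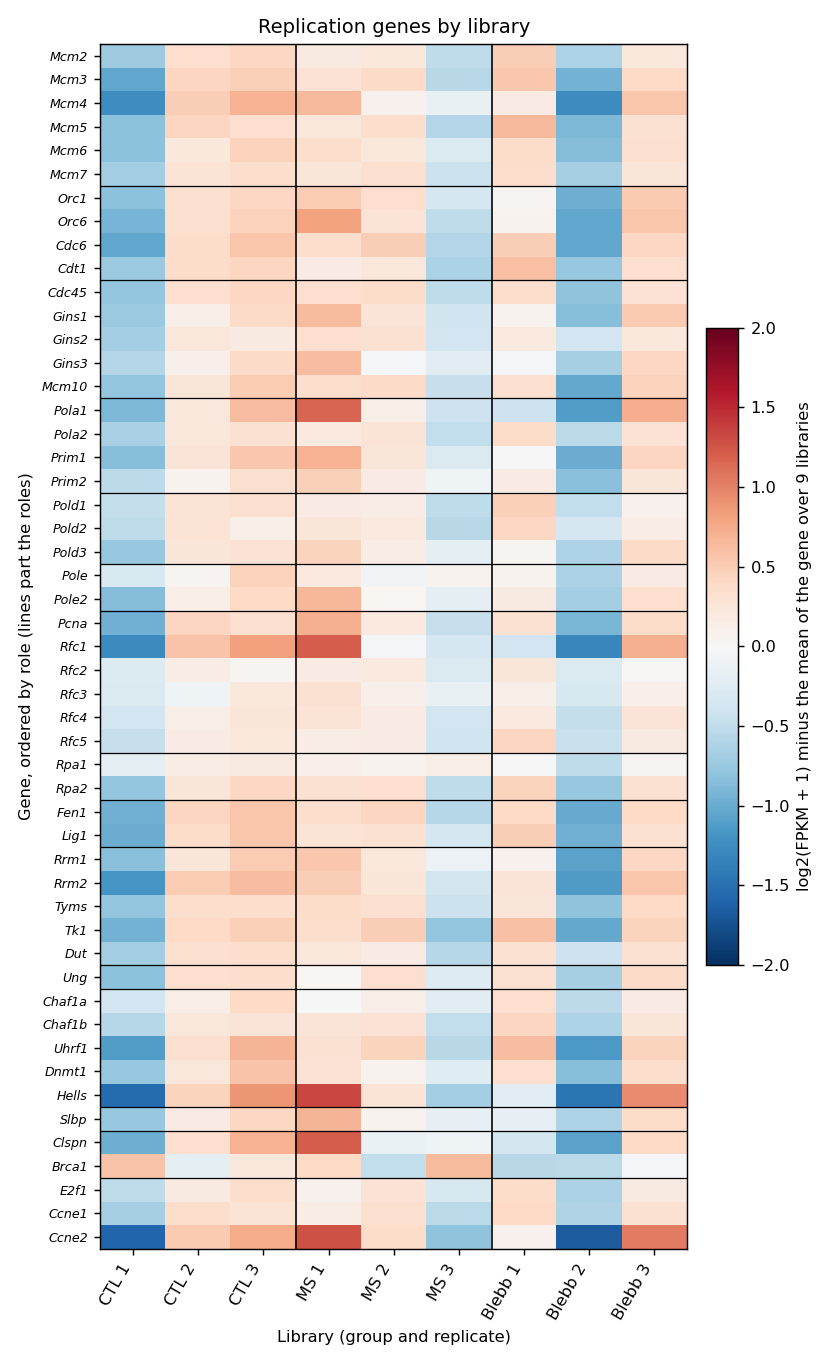
Each row is 1 of the 51 replication genes, ordered by role, and each column 1 of the 9 libraries. Color gives log2(FPKM + 1) minus the gene's mean over the 9 libraries, and CTL 1, MS 3 and Blebb 2 are blue (below the mean) in nearly every row while Brca1 is red in CTL 1 and MS 3.

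The MCM2-7 helicase unwinds DNA at the fork, and its 6 subunits form 1 ring. Values are given in the order of replicates 1, 2 and 3. Mcm2, the most abundant subunit, was at 98.5, 204 and 217 FPKM in the CTL libraries, 185, 187 and 113 in MS and 228, 105 and 188 in Blebb. Mcm3 was at 36.6, 103 and 106 FPKM in the CTL libraries, 93.7, 99.7 and 51.7 in MS and 111, 39.1 and 100.3 in Blebb, and its lowest library in each group was again CTL 1, MS 3 or Blebb 2. Mcm4, the least abundant subunit, was at 6.09, 22.5 and 26.2 FPKM in the CTL libraries, 25.1, 16.8 and 14.1 in MS and 17.8, 6.004 and 23.7 in Blebb. For these 3 subunits the CTL, MS and Blebb ranges overlapped.

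Mcm5 was at 38.1, 92.2 and 86.8 FPKM in the CTL libraries, 80.02, 87.8 and 44.99 in MS and 107, 36.2 and 84.7 in Blebb. Mcm6 was at 44.04, 91.5 and 109 FPKM in the CTL libraries, 101, 92.4 and 64.4 in MS and 102, 42.8 and 98.9 in Blebb. Mcm7 was at 48.4, 95.9 and 102 FPKM in the CTL libraries, 93.99, 99.6 and 58.4 in MS and 102, 49.7 and 93.7 in Blebb, with an exon that overlaps Cops6 on the other strand. In all 6 subunits CTL 1 and Blebb 2 were the lowest 2 of the 9 libraries and MS 3 the next, whereas the group means lay close together, for example 173 ± 65.0, 162 ± 42.0 and 174 ± 63.0 FPKM for Mcm2 (SD, n = 3) in CTL, MS and Blebb.

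The order of the subunits by FPKM held only in part. Mcm2 was above Mcm6 in 9 of 9 libraries, by 1.76 to 2.45 times, and Mcm5 was above Mcm4 in 9 of 9, by 3.18 to 6.25 times. Between them, Mcm6 was above Mcm7 in 5 libraries, Mcm7 above Mcm3 in 4 and Mcm3 above Mcm5 in 8, so Mcm3, Mcm6 and Mcm7 had no fixed order. The 6 values summed to 272, 347 and 279 FPKM in CTL 1, MS 3 and Blebb 2 and to between 579 FPKM (MS 1) and 668 FPKM (Blebb 1) in the remaining libraries. The shares of the sum moved less: Mcm2 took 31.9% to 37.6%, Mcm7 15.2% to 17.8% and Mcm4 2.15% to 4.35%.

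**Figure D2:**
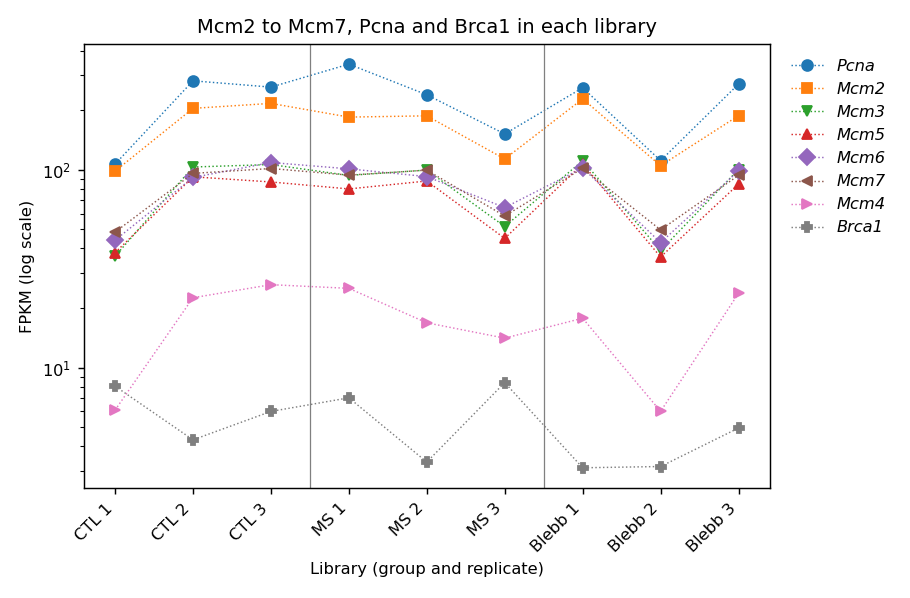
FPKM of Pcna, Mcm2 to Mcm7 and Brca1 on a log axis for each library, with vertical lines between the groups and dotted lines only to guide the eye. The Mcm genes and Pcna dip together in CTL 1, MS 3 and Blebb 2, whereas Brca1 is at 8.05 FPKM in CTL 1 and 8.39 FPKM in MS 3, the highest values of their groups.

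Origin licensing loads the helicase, and Cdt1, the loader that is destroyed once S phase begins, was the most abundant of its genes at 16.8, 37.7 and 39.4 FPKM in the CTL libraries, 32.5, 34.1 and 18.3 in MS and 44.6, 16.8 and 36.7 in Blebb. Cdc6, the ATPase that acts with Cdt1, ranged from 4.36 to 15.2 FPKM, and the origin recognition subunits Orc1 and Orc6 from 0.881 to 4.32 and from 7.23 to 28.6 FPKM. Of the genes that activate the helicase, Cdc45, which joins it in the active form, was at 12.4, 27.96 and 29.4 FPKM in the CTL libraries, 27.9, 28.6 and 15.03 in MS and 28.3, 12.1 and 27.03 in Blebb. The GINS subunits among the members and Mcm10, a scaffold at the fork, had the same low libraries, with the sum of Gins1, Gins2 and Gins3 at 9.34, 12.5 and 9.72 FPKM in CTL 1, MS 3 and Blebb 2 and from 18.1 to 25.7 FPKM in the other libraries. Gins4, the GINS subunit that is not a member, was more abundant than these 3 and varied less, at 20.2, 21.3 and 26.02 FPKM in the CTL libraries, 28.6, 25.9 and 23.8 in MS and 23.6, 19.5 and 23.8 in Blebb, and took 50.6% to 68.4% of the sum of all 4. Mcm10 ranged from 7.05 to 22.3 FPKM. Gins2 was at 3.05, 6.62 and 6.35 FPKM in the CTL libraries, 7.20, 6.98 and 3.996 in MS and 6.41, 3.999 and 6.50 in Blebb. In Cdt1, Cdc45 and Gins2 the 3 groups overlapped.

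The polymerase alpha-primase complex starts each new strand with an RNA-DNA primer. Prim1, its catalytic primase subunit, was at 9.09, 20.8 and 25.5 FPKM in the CTL libraries, 28.5, 20.6 and 13.99 in MS and 17.4, 8.18 and 23.5 in Blebb. Pola1, the catalytic polymerase subunit, was the scarcest of the complex at 0.347, 1.93 and 2.82 FPKM in the CTL libraries, 4.58, 1.73 and 0.887 in MS and 0.874, 0.153 and 3.13 in Blebb. The share of Pola1 in the summed FPKM of the complex ran from 0.627% in Blebb 2 to 6.77% in MS 1, while that of Prim1 ran from 33.5% to 42.1% in the same libraries. The accessory subunits Pola2 and Prim2 ranged from 8.45 to 17.9 and from 6.98 to 18.7 FPKM.

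Polymerases delta and epsilon extend the lagging and the leading strand. Pold2, the accessory subunit of polymerase delta, was at 31.9, 55.2 and 49.5 FPKM in the CTL libraries, 54.5, 52.2 and 30.9 in MS and 61.4, 36.1 and 50.7 in Blebb. The catalytic subunit Pold1 ranged from 21.4 to 43.1 FPKM and Pold3 from 4.57 to 11.9 FPKM. The smallest subunit Pold4, which is not a member, ran the other way, at 31.2, 19.4 and 16.1 FPKM in the CTL libraries, 18.8, 16.99 and 23.2 in MS and 21.9, 34.8 and 17.2 in Blebb. Over all 4 subunits the share of Pold2 in the summed FPKM therefore ran from 35.7% in CTL 1 to 46.4% in MS 2, and that of Pold4 from 14.1% in CTL 3 to 35.7% in Blebb 2. Pole2, the accessory subunit of polymerase epsilon, was at 4.83, 10.7 and 12.95 FPKM in the CTL libraries, 15.7, 9.88 and 8.23 in MS and 11.01, 5.61 and 12.4 in Blebb. The catalytic subunit Pole ranged from 3.48 to 8.59 FPKM and was 1 of the 4 members not lowest in MS 3, where it was at 6.34 FPKM against 5.69 FPKM in MS 2.

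Pcna, the ring that tethers polymerases to DNA, was the most abundant member at 107, 282 and 262 FPKM in the CTL libraries, 342, 239.5 and 152 in MS and 259.9, 111 and 271 in Blebb. It was highest in MS 1 and lowest in CTL 1 and Blebb 2, and the groups overlapped. The clamp loader RFC, which opens this ring, was among the steadiest parts of the set except for its large subunit. Rfc1 was at 1.86, 9.30 and 11.2 FPKM in the CTL libraries, 15.2, 5.86 and 4.52 in MS and 4.34, 1.81 and 10.4 in Blebb, a share of the RFC sum from 2.05% in Blebb 2 to 10.1% in MS 1. The 4 small subunits Rfc2 to Rfc5 stayed between 19.4 and 45.6 FPKM in every library, and the share of Rfc4 ran only from 22.1% to 24.4%.

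Rpa1, the large subunit of the complex that coats single-stranded DNA, was at 52.4, 66.7 and 67.9 FPKM in the CTL libraries, 64.7, 62.7 and 66.2 in MS and 60.5, 41.9 and 62.2 in Blebb. It was the member with the smallest spread. Every Blebb library was below every MS library, with Blebb 3 at 62.2 FPKM just under MS 2 at 62.7 FPKM. Rpa1 was the only member so placed (1 of 51), against 3.73% of all genes tested. Its partner Rpa2 varied more, from 15.2 FPKM in CTL 1 to 36.6 FPKM in Blebb 1. In the sum of Rpa1, Rpa2 and Rpa3, the small subunit that is not a member, the share of Rpa2 ran from 17.9% in MS 3 to 27.9% in Blebb 1. Fen1, the flap nuclease that trims Okazaki fragments, was at 20.6, 55.4 and 60.9 FPKM in the CTL libraries, 52.3, 55.5 and 27.1 in MS and 54.4, 19.8 and 54.2 in Blebb. Lig1, which seals them, ranged from 18.1 to 54.4 FPKM.

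Deoxynucleotides are made and salvaged in S phase. Tk1, the thymidine kinase of the salvage route, was at 58.2, 148 and 157 FPKM in the CTL libraries, 144, 158 and 65.1 in MS and 169.6, 55.05 and 154 in Blebb. Rrm2, the S phase subunit of ribonucleotide reductase, was at 39.4, 128 and 139 FPKM in the CTL libraries, 128, 107 and 69.5 in MS and 108, 40.7 and 134 in Blebb. Its share in the sum with Rrm1 stayed between 55.7% and 65.6% although the sum itself ran from 67.1 FPKM in Blebb 2 to 219.7 FPKM in CTL 3. Tyms, which makes thymidylate, ranged from 12.4 to 29.8 FPKM, and the reductase subunit Rrm1 from 26.4 to 82.8 FPKM. Dut, which removes dUTP, was at 33.9, 69.6 and 71.1 FPKM in the CTL libraries, 64.8, 62.5 and 37.2 in MS and 68.6, 41.6 and 69.03 in Blebb. As in most of the set, the lowest library of each group was CTL 1, MS 3 or Blebb 2. Ung, the glycosylase that cuts uracil out of DNA, was at 2.21, 6.17 and 6.21 FPKM in the CTL libraries, 4.81, 6.16 and 3.74 in MS and 6.04, 2.58 and 6.39 in Blebb, and its groups overlapped.

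Chromatin and its methylation are copied behind the fork. Uhrf1, which brings the methyltransferase Dnmt1 to hemimethylated DNA, was at 30.5, 84.6 and 109 FPKM in the CTL libraries, 83.3, 92.3 and 45.6 in MS and 103, 29.8 and 91.6 in Blebb. Hells, a chromatin remodeler needed for methylation, was at 0.478, 4.86 and 6.89 FPKM in the CTL libraries, 9.88, 4.22 and 1.69 in MS and 2.71, 0.566 and 7.29 in Blebb. The CAF-1 subunits Chaf1a and Chaf1b, which deposit histones on new DNA, were at most 27.4 and 59.03 FPKM, and Dnmt1 was at most 62.9 FPKM. Slbp, which binds the stem-loop of histone mRNAs, was at 12.7, 25.03 and 29.95 FPKM in the CTL libraries, 35.99, 23.4 and 19.7 in MS and 19.7, 14.1 and 28.9 in Blebb. CTL 1, MS 3 and Blebb 2 were the lowest of their groups for all 6 of these genes.

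The checkpoint and repair role held 2 genes. Brca1, which acts in recombination repair and fork protection, was at 8.05, 4.31 and 6.0 FPKM in the CTL libraries, 7.03, 3.33 and 8.39 in MS and 3.11, 3.16 and 4.95 in Blebb. It was the only member whose highest CTL library was CTL 1, and Blebb 1, at 3.11 FPKM, was its lowest Blebb library. Clspn, the adaptor that activates the checkpoint kinase Chk1, was at 0.494, 2.71 and 3.76 FPKM in the CTL libraries, 5.78, 1.66 and 1.75 in MS and 1.28, 0.389 and 2.85 in Blebb, with CTL 1 and Blebb 2 lowest but MS 2 and MS 3 nearly equal.

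E2f1, a transcription factor of the G1/S wave, was at 17.8, 29.3 and 33.02 FPKM in the CTL libraries, 27.5, 31.8 and 20.3 in MS and 33.7, 16.3 and 29.3 in Blebb. Ccne1, the more abundant cyclin E, was at 22.05, 45.6 and 43.5 FPKM in the CTL libraries, 39.6, 44.6 and 24.4 in MS and 47.5, 23.1 and 44.5 in Blebb. Ccne2, the other cyclin E, was at 0.485, 5.43 and 6.44 FPKM in the CTL libraries, 9.83, 4.79 and 1.56 in MS and 3.76, 0.403 and 8.22 in Blebb. Both cyclins were low in the same libraries, but Ccne2 varied far more, and its share of their sum ran from 1.71% in Blebb 2 to 19.9% in MS 1. The 3 groups overlapped in all 3 genes.

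The first comparison, MS against CTL, addressed the response to cyclic straining. No member passed the test between MS and CTL by limma on log2(FPKM + 1), with 0 of 51 members at an adjusted p under 0.05 (background 0.0% of the genes tested) and 0 at an unadjusted p under 0.05 (background 0.158%). No member had groups that did not overlap (0 of 51), against 3.17% of all genes tested. The fold changes were slightly above 0 in 43 of 51 members, against 5008 of 10109 genes tested. Their median was 0.097 on the log2 scale with a median SE of 0.41, against a median of -0.0018 over all genes. The members moved together from library to library, so these are not 43 separate observations.

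The lowest members in MS against CTL were Pold1 at a log2 fold change of -0.11 (SE 0.31, 95% interval -0.80 to 0.59, adjusted p = 1.0), Cdt1 at -0.10 (SE 0.43, 95% interval -1.07 to 0.87, adjusted p = 1.0) and Chaf1a at -0.073 (SE 0.26, 95% interval -0.67 to 0.52, adjusted p = 1.0). In FPKM, Pold1 had group means of 32.6 ± 9.35 in CTL and 29.9 ± 7.36 in MS (SD, n = 3), and Chaf1a of 21.8 ± 5.996 and 20.3 ± 2.74. The highest were Ccne2 at 0.39 (SE 0.84, 95% interval -1.50 to 2.28, adjusted p = 1.0), Hells at 0.39 (SE 0.79, 95% interval -1.40 to 2.17, adjusted p = 1.0) and Pola1 at 0.31 (SE 0.57, 95% interval -0.99 to 1.61, adjusted p = 1.0). Pcna, which averaged 217 ± 95.8 FPKM (CTL) and 244 ± 95.3 FPKM (MS), stood at 0.22 (SE 0.47, 95% interval -0.85 to 1.29, adjusted p = 1.0). Every one of these intervals included 0, and those of Ccne2 and Hells were the widest.

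The direction of the median rested on single libraries. Without CTL 1 it was -0.27, with 2 of 51 members above 0, and without MS 3 it was 0.36, with 49 above 0. Without MS 1 or MS 2 it was -0.062 and -0.012. The median was 0.26 without CTL 2 and 0.31 without CTL 3, with 48 and 50 members above 0. CTL 1, MS 3 and Blebb 2 were picked because the members were low in them. A smaller spread without them follows from that choice, here and in the comparisons below. Without these 3 together, which left 2 libraries per group, the median was -0.023 with 21 members above 0 and the median SE was 0.16. Again 0 members had an unadjusted p under 0.05 by limma (all genes 0.633%). Ccne2 was then at 0.19 (SE 0.39), Hells at 0.15 (SE 0.46) and Pola1 at 0.22 (SE 0.45). Cdt1 was at -0.21 (SE 0.14) and Pcna at 0.075 (SE 0.18).

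**Figure D3:**
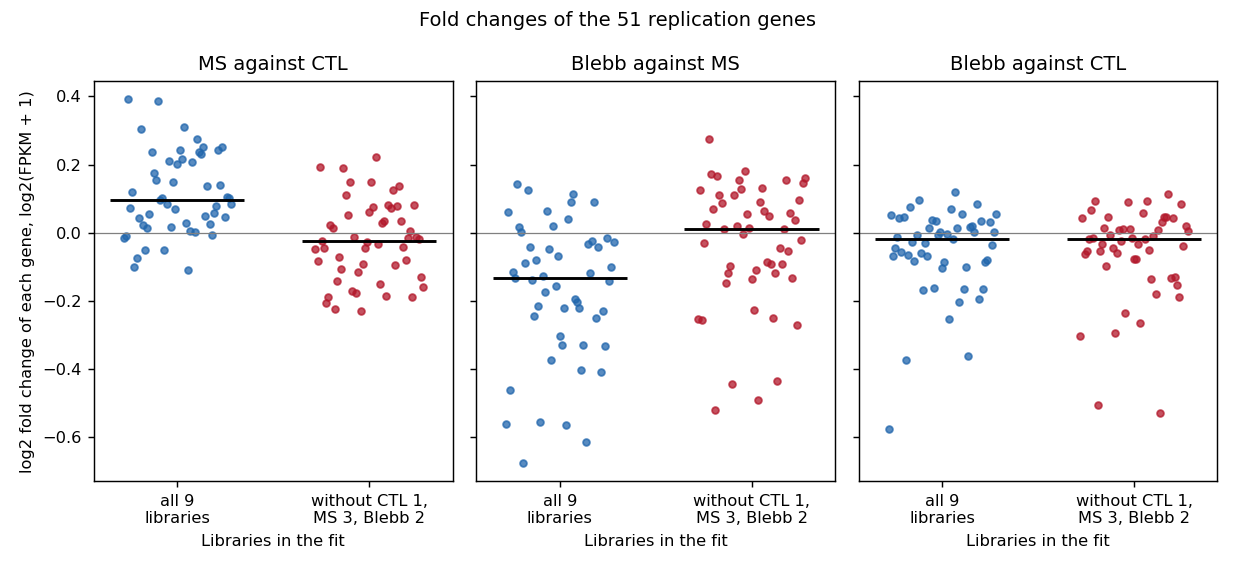
Each point is the log2 fold change of 1 of the 51 replication genes on the log2(FPKM + 1) scale, from all 9 libraries (blue) or without CTL 1, MS 3 and Blebb 2 (red), and black lines are medians. The medians with all libraries are 0.097, -0.13 and -0.017 in the 3 comparisons and lie at -0.023, 0.012 and -0.018 without those libraries.

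Blebb was then compared with MS, the comparison that adds myosin inhibition to straining if the Blebb cells were also strained. By limma, 0 of 51 members passed an adjusted p of 0.05 (background 0.0%) and 0 passed an unadjusted p of 0.05 (background 1.25%). Rpa1 was the only member (1 of 51) whose groups did not overlap, against 3.73% of all genes tested, at 60.5, 41.9 and 62.2 FPKM in Blebb below 64.7, 62.7 and 66.2 FPKM in MS. Its log2 fold change was -0.25 (SE 0.17, 95% interval -0.64 to 0.14, adjusted p = 0.897). Leaving out CTL 1, MS 3 and Blebb 2 put Rpa1 at -0.054 (SE 0.11, 95% interval -0.32 to 0.22). The members were at or below MS in most cases, with 11 of 51 above 0 against 4956 of 10109 genes tested. Their median was -0.13 against -0.0059 over all genes.

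The lowest members in Blebb against MS were Clspn at -0.68 (SE 0.55, 95% interval -1.91 to 0.56, adjusted p = 0.897), Rfc1 at -0.61 (SE 0.68, 95% interval -2.14 to 0.91, adjusted p = 0.897) and Pola1 at -0.56 (SE 0.57, 95% interval -1.86 to 0.73, adjusted p = 0.897). Each of them was highest in MS 1. Without MS 1 they were at -0.23, -0.15 and -0.13, and without Blebb 2 at -0.31, -0.12 and -0.14. Without MS 3 they were at -0.88, -0.92 and -0.91, and without Blebb 3 at -1.05, -1.13 and -1.06. The highest were Cdt1 at 0.14 (SE 0.43, 95% interval -0.83 to 1.12, adjusted p = 0.955), Dut at 0.13 (SE 0.34, 95% interval -0.64 to 0.89, adjusted p = 0.949) and Pold2 at 0.11 (SE 0.29, 95% interval -0.54 to 0.77, adjusted p = 0.945). Pcna stood at -0.22 (SE 0.47, 95% interval -1.29 to 0.85, adjusted p = 0.931). The smallest unadjusted p of any member was 0.112 for Brca1, with an adjusted p of 0.897 and a log2 fold change of -0.56. Leaving out CTL 1, MS 3 and Blebb 2 put Brca1 at -0.25 (SE 0.34).

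Here too the median followed single libraries. Without Blebb 2 it was 0.25 with 45 of 51 members above 0, without MS 3 it was -0.35 with 0 above 0, and without MS 1 it was 0.00083. Without Blebb 1 or Blebb 3 it was -0.32 and -0.35. The median was -0.025 without MS 2, with 24 members above 0. Without CTL 1, MS 3 and Blebb 2 together the median was 0.012 with 27 members above 0, and 0 members had an unadjusted p under 0.05 (all genes 1.10%). In that setting Clspn was at -0.52 (SE 0.45), Rfc1 at -0.43 (SE 0.47), Pola1 at -0.49 (SE 0.45) and Hells at -0.44 (SE 0.46). Cdt1 was at 0.28 (SE 0.14). The 95% intervals of all of them included 0.

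Blebb against CTL, which shares the Blebb libraries with the comparison above and the CTL libraries with the first, gave 0 of 51 members at an adjusted p under 0.05 by limma (background 0.0%) and 0 at an unadjusted p under 0.05 (background 0.089%). No member had groups that did not overlap (0 of 51), against 2.08% of all genes tested. Of the members 21 of 51 were above 0, against 4648 of 10109 genes tested. The median log2 fold change was -0.017, close to the -0.013 of all genes. It turned to 0.016 with median-of-ratios factors and to 0.018 after GC trends were taken out.

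Brca1 was the lowest member at -0.58 (SE 0.32, 95% interval -1.29 to 0.14, adjusted p = 1.0), averaging 6.12 ± 1.87 FPKM in the CTL libraries and 3.74 ± 1.04 FPKM in the Blebb libraries (SD, n = 3). Its groups overlapped, since Blebb 3 at 4.95 FPKM was above CTL 2 at 4.31 FPKM. Brca1 was at -0.30 (SE 0.34) without CTL 1, MS 3 and Blebb 2. Without CTL 1 alone it was at -0.39. Clspn followed at -0.37 (SE 0.55, 95% interval -1.61 to 0.86, adjusted p = 1.0), and was at -0.0080 without Blebb 2, -0.034 without CTL 3, -0.21 without CTL 2, -0.74 without Blebb 3 and -0.87 without CTL 1. The highest members were Pold2 at 0.12 (SE 0.29, 95% interval -0.53 to 0.77, adjusted p = 1.0) and Gins2 at 0.10 (SE 0.30, 95% interval -0.59 to 0.79, adjusted p = 1.0), and Pcna stood at -0.0024 (SE 0.47, 95% interval -1.07 to 1.07, adjusted p = 1.0). Without CTL 1 the median was -0.39 and 0 members were above 0, and without Blebb 2 it was 0.34 with 48 above 0. Without Blebb 1 or Blebb 3 it was -0.22 in each case, and without CTL 2 or CTL 3 it was 0.13 and 0.19. Without CTL 1, MS 3 and Blebb 2 together it was -0.018 with 20 above 0, and 0 members had an unadjusted p under 0.05 (all genes 0.386%).

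Other gene groups moved with the replication genes from library to library. For each library the median over a list of the deviation of log2(FPKM + 1) from each gene's mean was taken. For the 51 replication genes it was -0.77 in CTL 1, -0.40 in MS 3 and -0.80 in Blebb 2, and 0.23 to 0.41 in the other 6 libraries. For 14 mitotic genes it was -0.78, -0.35 and -0.93 in those libraries and 0.20 to 0.47 elsewhere. All genes tested stayed between -0.076 and 0.076.

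Genes of the integrated stress response, which is switched on when cells lack amino acids or fold proteins poorly, went the other way. The median of 11 tested genes was 0.73 in CTL 1, 0.37 in MS 3 and 0.81 in Blebb 2, and between -0.54 and -0.070 in the other libraries. Ddit3, the stress transcription factor CHOP, was at 137, 24.7 and 18.5 FPKM in the CTL libraries, 45.7, 25.8 and 99.1 in MS and 23.6, 131 and 22.4 in Blebb. Trib3, one of its targets, was at 153, 21.2 and 19.4 FPKM in the CTL libraries, 36.4, 21.99 and 103 in MS and 41.7, 183 and 23.7 in Blebb. Some of the list followed less: Atf3 was at 3.64 FPKM in MS 3 against 4.85 FPKM in MS 1. Psat1 and Phgdh were at 114 and 394 FPKM in Blebb 2 against 131 and 419 FPKM in Blebb 1. The other tested genes of the list were highest in CTL 1, MS 3 and Blebb 2 within their groups. The list's 12 genes summed to 742 to 1591 FPKM across the CTL libraries, 749 to 1286 across MS and 768 to 1602 across Blebb, with Vldlr listed at 0. The median of the 7 melanocyte markers was 0.28, 0.31 and 0.28 in the same libraries, although Mitf and Mlana were at their lowest CTL and Blebb values in CTL 1 and Blebb 2. The part of stress genes or melanocyte genes in the level of the replication genes was not tested.

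**Figure D4:**
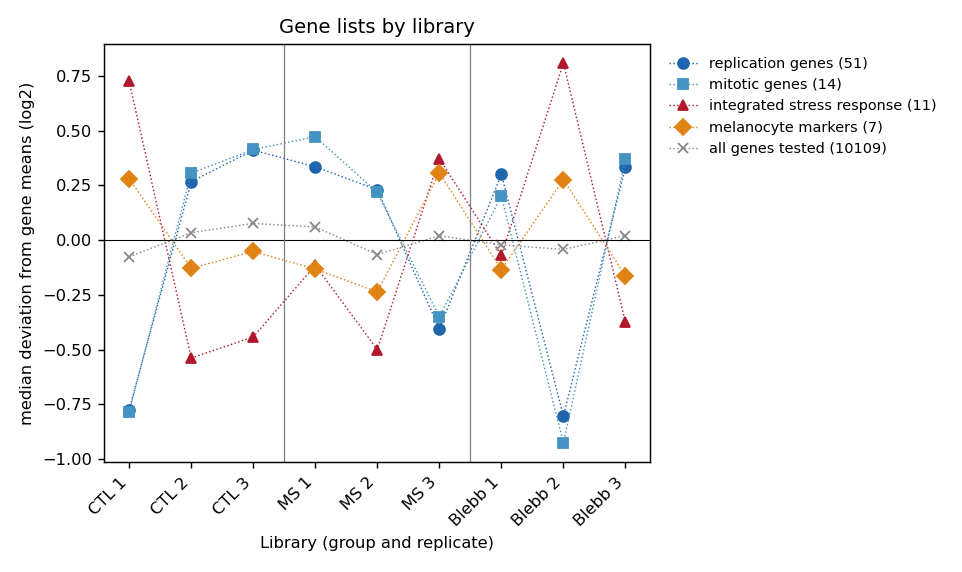
Median deviation from the gene means (log2 scale) of 5 gene lists in each of the 9 libraries, with vertical lines between the groups and dotted lines only to guide the eye. The replication genes are at -0.77, -0.40 and -0.80 in CTL 1, MS 3 and Blebb 2, where the integrated stress response genes are at 0.73, 0.37 and 0.81.

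Related genes outside the set were counted in the same fits. Of 37 other replication genes 36 were tested, and 0 passed an unadjusted p of 0.05 in any comparison. Their median log2 fold changes were 0.21 in MS against CTL, -0.21 in Blebb against MS and -0.038 in Blebb against CTL, and Top2a, the topoisomerase that untangles replicated DNA, was the highest in the first (0.58) and the lowest in the second (-0.93). Top2a was at 4.23, 36.4 and 48.8 FPKM in the CTL libraries, 65.7, 26.1 and 16.99 in MS and 18.1, 4.07 and 47.6 in Blebb, with the same low libraries as the set. Of 20 other nucleotide supply genes 19 were tested, with 0 passing and medians of 0.050, 0.023 and 0.061.

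Of 24 other G1/S regulators 23 were tested, again with 0 passing, and the medians were 0.017, -0.042 and -0.030. Ccnd1, the cyclin D of the step before cyclin E, was the highest of them in both Blebb comparisons, at 0.61 against MS and 0.52 against CTL, and stood at 29.02, 58.1 and 72.8 FPKM in the CTL libraries, 58.6, 60.3 and 28.7 in MS and 96.8, 36.3 and 104 in Blebb. Its groups overlapped, and its SE of 0.48 was close to these differences. Of 15 mitotic genes 14 were tested with 0 passing and medians of 0.17, -0.24 and -0.085, the extremes being Bub1, a spindle checkpoint kinase, at 0.55 in MS against CTL and -0.86 in Blebb against MS. Of the 12 stress genes 11 were tested with 0 passing and medians of 0.031, 0.15 and 0.15.

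The set was also ordered by the GC content of its longest transcript, because the libraries differed along this axis within groups. The correlation across genes between GC content and a library's deviation from the gene means ran from -0.64 in MS 1 to 0.55 in Blebb 1. For the 10 members under 45% GC, MS 1 was above MS 2 in 10, by a median of 0.53 on the log2 scale, and Blebb 1 was above Blebb 3 in 1, with a median of -0.38. All genes of that GC range had medians of 0.56 and -0.49. For the 20 members from 45% to 50% GC the same medians were 0.213 and -0.227 (all genes 0.258 and -0.173). For the 17 members from 50% to 55% they were -0.033 and 0.14 (all genes -0.00515 and 0.136). For the 4 over 55% they were -0.027 and 0.28 (all genes -0.0904 and 0.245).

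Ccne2 (36.3% GC), Hells (37.7%) and Pola1 (41.5%), the 3 most AT-rich members, were also the 3 with the widest range between libraries and the 3 highest in MS against CTL. Rfc1 and Clspn, at 46.5% and 49.1% GC, differed between MS 1 and MS 2 by even more, 1.24 and 1.35 on the log2 scale. After the trend on GC content was taken out of each library, the medians of the set were 0.093 in MS against CTL, -0.084 in Blebb against MS and 0.018 in Blebb against CTL. Whether GC content accounts for any single gene's value was not tested.

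**Figure D5:**
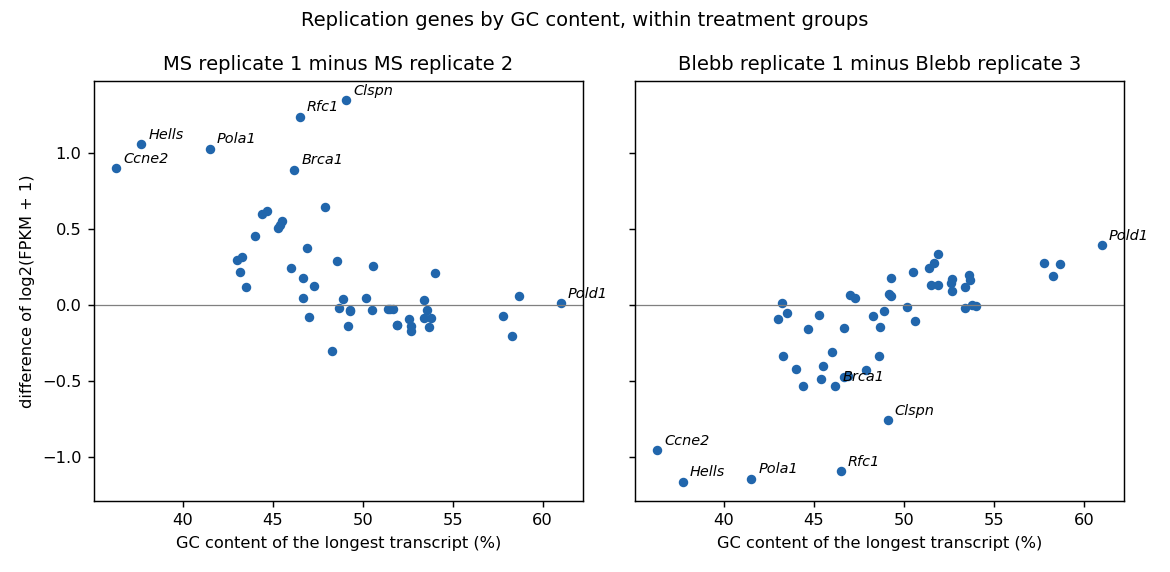
GC content of the longest transcript (%) against the difference of log2(FPKM + 1) between 2 replicates of the same treatment, MS 1 minus MS 2 (left) and Blebb 1 minus Blebb 3 (right), for the 51 replication genes. All 10 members under 45% GC are above 0 on the left and 9 of them are below 0 on the right.

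Reads of a few members may be shared with neighbors. Exons of 13 members overlap another listed gene, and in 11 of them that gene had a mean of at least 1 FPKM, among them Mcm7 with Cops6, Rfc5 with Wsb2, Fen1 with Tmem258, Orc6 with Vps35, Chaf1a with Ubxn6 and Ccne2 with Ints8. All of those neighbors lie on the opposite strand, and whether the counting used strand is not given in the sources used here, so the values of these members are less certain.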

How the data were processed

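RNA of B16 cells was extracted with TRIzol and sequenced from SMARTER mRNA-Seq libraries in 3 CTL, 3 MS and 3 Blebb samples, and FPKM values per gene were deposited by the authors, 1 table for each library. The aligner, the counting program and its use of strand are not given in the sources used here, and the submitters' processing notes name the mouse build only. Low FPKM values shared no common step (at most 1.61% of the ratios of values under 0.2 FPKM fell in any bin of 0.02 log2), so no read counts were recovered, the depth is unknown and precision was judged from replicates alone. The value column of CTL 1 is headed by a sample name where the others name the unit and was taken to hold FPKM, as its sum is like that of the others. No 2 libraries held identical values.

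Group and replicate of each library came from its label. On the log2(FPKM + 1) scale, the 10109 genes averaging at least 1 FPKM were fitted in limma 3.58.1 (R 4.3.3) on the 3 groups, with eBayes and a mean-variance trend, two-sided, adjusted by Benjamini-Hochberg across the 10109 genes, and a threshold of 0.05. Fold changes on this scale understate changes of low genes. The fit was tested on simulated data with independent noise for each gene, which lack the shared shifts between libraries seen here. Promoter words were counted in Python 3.11.15. GC content came from the longest GENCODE M21 transcript of a symbol (9663 genes, 95.6%). Members and lists, and the 3 libraries left out together, were chosen with earlier results of these data known.

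Values in every library were given for the most abundant member of each role, Mcm2 to Mcm7, Pcna, Slbp, Ung, E2f1, Ccne1 and Ccne2, and fold changes for the 3 highest and 3 lowest members (2 and 2 in Blebb against CTL) and Pcna. Rrm2, Dut, Gins2, Pola1, Rfc1, Hells, Clspn, Pold4, Gins4, Ddit3, Trib3, Top2a and Ccnd1 by library, and the fold change of Rpa1, were added after their values were seen. Alternatives were another pseudocount, other minimums, median-of-ratios factors, quantile normalization, eBayes without the trend, fits of 2 groups alone, a replicate block, GC trend removal and leaving out libraries. For no replicate number did all 3 pairs of libraries deviate together (correlations of deviations from -0.785 to 0.835), so the numbers were not taken as pairs.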

Additional observations from a re-analysis of the deposited data

How the results depend on the processing

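The count of replication genes at an adjusted p under 0.05 by limma was 0 in all 3 comparisons under every alternative run, and a minimum mean of 5 FPKM kept 44 of the 51 genes. At an unadjusted p under 0.05 by limma the count was 0 except where Brca1 made it 1 of 51. That was in Blebb against CTL with the replicate number as a block (all genes 0.0989%). Without MS 2 it was so in Blebb against MS (all genes 5.92%) and in Blebb against CTL (all genes 0.148%). The range was 0 to 1 with 1 library left out. The replicate block changed no other call. Medians over the set took either sign with 1 library left out: -0.27 to 0.36 in MS against CTL, -0.35 to 0.25 in Blebb against MS and -0.39 to 0.34 in Blebb against CTL. No median moved by more than the replicate SD of 0.571. That SD comes from the same libraries and is larger than the medians themselves, so this does not measure stability. Of the single-gene values under alternatives, 336 kept their direction and 38 did not, none of them past a threshold. Many of the 336 could not change. Other minimums, eBayes without the trend, fits of 2 groups alone and the replicate block leave a fold change as it was. So does leaving out a library of the group not compared, and the 336 therefore do not measure stability. With 1 library left out, the log2 fold change for MS against CTL spanned -0.37 to 0.11 for Pold1, -0.48 to 0.18 for Cdt1, -0.29 to 0.10 for Chaf1a, -0.13 to 0.66 for Pola1, -0.35 to 0.88 for Hells, -0.35 to 0.93 for Ccne2 and -0.23 to 0.52 for Pcna. In Blebb against MS they ran from -0.14 to 0.32 for Pold2, -0.13 to 0.36 for Dut, -0.13 to 0.55 for Cdt1 and -0.52 to 0.20 for Pcna, with -1.05 to -0.23 for Clspn, -1.13 to -0.12 for Rfc1 and -1.06 to -0.13 for Pola1, and in Blebb against CTL from -0.20 to 0.29 for Gins2, -0.11 to 0.32 for Pold2 and -0.45 to 0.41 for Pcna. After GC trends were taken out, whether or not the replicate block was in the fit, Pold1 was at 0.0053 in MS against CTL, Pold2 at -0.032 in Blebb against MS and Pcna at 0.11 in Blebb against CTL. Median-of-ratios factors put Pcna at 0.030 in Blebb against CTL, and leaving out CTL 1, MS 3 and Blebb 2 together put Gins2 at -0.0059. The cause of these changes was not tested. Single samples per arm never arose, since each group kept at least 2 libraries, and the unknown depth leaves genes near 1 FPKM, such as Clspn and Pola1, with no counting interval.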
